A study of Homo sapiens with 7 samples.

Results

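H3K4me3 was compared between 2 ChIP-seq libraries from the colon carcinoma line HCT116 after knockout of both copies of KDM5A (KDM5A-/-) and transfection of a replacement. The knockout cells were kept in G418. One library came from cells transfected with wild-type KDM5A and the other from cells given mutant KDM5A, fixed 24 h later. A further library, from the same knockout cells given an empty vector (EV), is shown beside them. It does not enter the ratios or levels by which regions were picked here. Whether it helped to define the regions of the deposited table is not given in the sources used here. Of the 30840 regions listed in the deposited table, 30820 were compared, and the 20 inside KDM5A itself were left out because transfected KDM5A can add reads there. Each transfection gave 1 H3K4me3 library. No difference below therefore has a replicate check or a p-value, and the intervals speak of counting error alone. The labels do not say whether the knockout line is 1 clone, which residue the mutant changes or how the 2 transfections compared in protein level. The series title concerns methylation of KDM5A by SMYD2, and whether the mutant changes a residue that SMYD2 methylates is not given in the sources used here.

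KDM5A is a lysine demethylase. Through its JmjC catalytic domain it strips methyl groups from lysine 4 of histone H3, and its PHD fingers read the methylation state of that histone tail. Trimethylated lysine 4 (H3K4me3) sits at the starts of active genes and, at lower level, at many silent developmental genes. SMYD2 is a lysine methyltransferase that acts on histones and on other proteins. The comparison asks whether mutant KDM5A left a different H3K4me3 level than wild-type KDM5A.

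The table gives RPM, the reads of a region scaled to a library total of 1000000. The wild-type KDM5A library held 10852411 reads, the mutant library 9906508 and the EV library 10713021, as recovered from the steps of the values. Signal inside the left-out KDM5A regions, which lie between 394565 and 493388 on hg19 chromosome 12, summed to 4.01 RPM in the EV library, 396 RPM in the wild-type library and 487 RPM in the mutant library, the last 1.23-fold the second (95% interval 1.18 to 1.28). Whether a difference in transfected KDM5A had a part in the results was not tested. The first region beyond, chr12:496602-499566 at the start of KDM5A, had 55.1 RPM with EV, 58.0 with wild-type and 59.96 with mutant KDM5A. The ratio of mutant to wild-type there was 1.03 (0.923 to 1.16). Markers of the labelled cell type were present: a region lay at the start of each of 8 epithelial genes, CDH1, EPCAM and the keratin genes KRT8, KRT18 and KRT19 among them, with 45.6 RPM or more in the wild-type library. None of 7 genes that mark blood, fibroblast, muscle or glial cells had a region within 1000 bp of its start. Starts were placed by hand, so a missing region can also mean a misplaced start. KMT2D and KLF5, from gene lists described below, also had no region, and the endothelial marker PECAM1 was not placed.

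Among regions whose gene start could be placed, those below stood at the low and high ends of the ratio of mutant to wild-type KDM5A. Their promoters are shown because the H3K4me3 differences described below lie over these gene starts. Each is the 250 bases before the start, 5′ to 3′ on the strand of the gene, from RefSeq (GRCh38.p14), matched by symbol, and a RefSeq start can differ from the start the region covers. Capitals mark CCGCCC and its reverse complement GGGCGG, the letters reported as the binding motif of the ARID domain of KDM5A, which also form the core of the GC box bound by SP1. HUNK, ATOH8 and LRRN2 were lower with the mutant, and THG1L and DEPP1 higher.
HUNK: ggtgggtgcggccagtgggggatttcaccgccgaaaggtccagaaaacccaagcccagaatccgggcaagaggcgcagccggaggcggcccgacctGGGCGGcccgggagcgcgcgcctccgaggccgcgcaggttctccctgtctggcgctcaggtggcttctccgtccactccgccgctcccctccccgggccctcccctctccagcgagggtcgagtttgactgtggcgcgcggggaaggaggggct
ATOH8: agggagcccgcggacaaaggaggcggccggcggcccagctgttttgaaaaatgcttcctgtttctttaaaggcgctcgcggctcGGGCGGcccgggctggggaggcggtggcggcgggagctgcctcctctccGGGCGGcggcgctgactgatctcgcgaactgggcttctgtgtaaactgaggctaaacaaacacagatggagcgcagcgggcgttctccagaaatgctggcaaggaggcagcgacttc
LRRN2: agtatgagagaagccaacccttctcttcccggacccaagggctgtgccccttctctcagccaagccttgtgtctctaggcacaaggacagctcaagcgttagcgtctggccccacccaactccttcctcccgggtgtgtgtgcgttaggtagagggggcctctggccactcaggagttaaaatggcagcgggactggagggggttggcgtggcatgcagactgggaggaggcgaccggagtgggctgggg
THG1L: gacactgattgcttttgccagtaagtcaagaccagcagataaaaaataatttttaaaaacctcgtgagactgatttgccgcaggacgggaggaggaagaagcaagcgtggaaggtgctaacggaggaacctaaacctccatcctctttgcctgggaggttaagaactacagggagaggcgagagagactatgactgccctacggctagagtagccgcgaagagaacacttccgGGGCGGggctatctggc
DEPP1: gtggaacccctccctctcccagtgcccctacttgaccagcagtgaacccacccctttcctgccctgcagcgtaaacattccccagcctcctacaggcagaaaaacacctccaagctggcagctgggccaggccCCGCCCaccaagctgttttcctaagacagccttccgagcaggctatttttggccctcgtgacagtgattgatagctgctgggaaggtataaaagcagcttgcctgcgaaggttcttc
The motif occurred 1 time before HUNK, 2 times before ATOH8, 1 time each before THG1L and DEPP1, and 0 times before LRRN2. It thus stood on both sides of the comparison. Of all 27305 RefSeq promoters of this length, 42.3% hold it on either strand. Of the 129 gene starts placed in regions, 91 had a RefSeq promoter, and 58 of these (63.7%) hold the motif. These are chosen genes, most with strong signal, so the 2 shares are not like for like and show no enrichment. Among the 76 of the 91 with strong signal (a mean of 20 RPM or more over the mutant and wild-type libraries), the median log2 mutant/wild-type ratio was −0.079 for the 49 with the motif and −0.047 for the 27 without. This difference was not tested.

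As scaled to library totals, H3K4me3 was slightly lower with mutant than with wild-type KDM5A over most strong regions. The regions compared held 60.7% of the wild-type library's reads (Wilson 95% interval 60.63% to 60.69%) and 56.9% of the mutant's (56.87% to 56.93%), against 67.0% with EV. The share with the mutant was thus 0.938 of that with wild-type KDM5A. For each region a log2 ratio of mutant to wild-type was taken after adding 0.7 RPM to both values, which understates the change of weak regions. Over all 30820 regions its median was −0.077, a change of −5.22%, with quartiles of −0.23 and 0.089 and 63.7% below 0. The 10745 strong regions had a median of −0.093, and 79.7% of them were below 0. In the 4288 middle regions, from 5 to 20 RPM, the median was also −0.093, with 66.0% below 0. The 15787 weak regions, under 5 RPM, had a median of −0.027 and 52.2% below 0. A scaling to equal sums or to a median ratio of 1 brings the strong regions' median to −0.0020 and 0.00051, so the direction of this small shift rests on scaling by total reads. With 1 library each, the efficiency of the ChIP and the level of H3K4me3 cannot be told apart in it.

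Few regions departed far from that shift. At least 1.5-fold lower with the mutant were 1682 regions (5.46% of all) and 1601 were at least 1.5-fold higher (5.19%). Of these, 1609 and 1584 were weak. Lower regions made up 51.2% of the regions past 1.5-fold, and 40.2% (1332 lower and 1984 higher) when scaled to a median ratio of 1. Among the 15033 regions of 5 RPM or more, 73 were lower (0.486%) and 17 higher (0.113%), all of them middle regions, and 0 of the 10745 strong regions passed in either direction. Over all regions the exact 95% interval of the ratio, from the reads, left out 1 on the low side at 3331 (10.8%) and on the high side at 884 (2.87%), shares that carry the common shift. Set against the common ratio of the strong regions, 0.937, it lay below at 567 and above at 511 of them, 10.0% together, where counting error alone allows up to 5%.

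**Figure D1:**
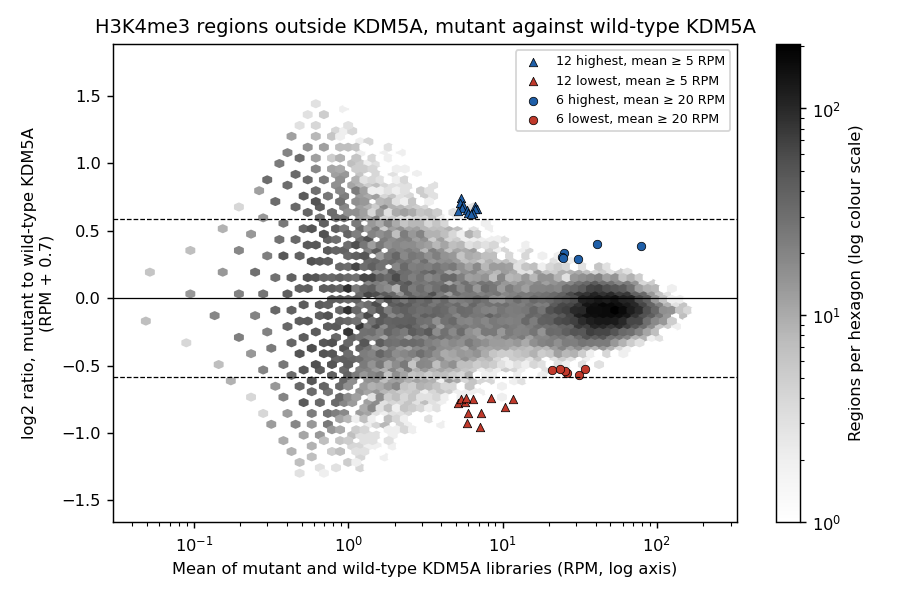
Log2 of mutant over wild-type KDM5A (RPM plus 0.7) against the mean of both libraries (RPM, log axis) for the 30820 regions outside KDM5A, as hexagons shaded by their number of regions, with the solid line at 0 and dashed lines at 1.5-fold. The spread narrows with level, and red and blue symbols mark the regions named for the lowest and highest ratios, of which the strong ones (circles) all lie between the dashed lines.

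Gene names here rest on general knowledge of hg19 positions, not on an annotation of that build. The lowest ratio among regions of 5 RPM or more lay over the start of HUNK, a protein kinase related to the AMPK family. The region, chr21:33244760-33246880 (hg19), had 15.1 RPM with EV, 9.68 with wild-type and 4.64 with mutant KDM5A. The mutant was thus 2.08-fold lower than wild-type (1.46 to 3.01), and wild-type was already lower than EV. LRRC32, which encodes the surface protein that holds latent TGF-beta, had 8.49, 9.49 and 4.95 RPM in the same order at its start (chr11:76381220-76382100), 1.92-fold lower with the mutant (1.35 to 2.75). Here EV and wild-type were close and the mutant stood apart.

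A further 5 of the 12 lowest regions lay inside genes, away from their main start. Inside PTK2B, a tyrosine kinase related to focal adhesion kinase, the region chr8:27218834-27220306 had 5.88 RPM with EV, 7.92 with wild-type and 3.84 with mutant KDM5A. Inside OSBPL3, of the oxysterol-binding protein family, chr7:25010030-25012229 had 7.37, 6.73 and 3.63 RPM. Inside PLEKHG5, a guanine nucleotide exchange factor, chr1:6530987-6532528 had 13.3, 14.9 and 8.58 RPM. The mutant was the lowest library at all 3. AHRR, the repressor of the aryl hydrocarbon receptor, had 8.21, 10.8 and 6.16 RPM at chr5:373397-374585, and PHLDB1 had 5.32, 7.37 and 4.14 RPM at chr11:118504913-118506192. No gene was given to the other 5, at chr1:210465502-210467011, chr13:113597191-113598638, chr1:28574802-28576731, chr15:96595876-96597475 and chr1:155139710-155140543. Over the 12 regions the mutant was 1.74-fold to 2.08-fold lower than wild-type, and EV was above the mutant in 12 and above wild-type in 4.

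At the 12 highest ratios the mutant was at 1.62 to 1.80 times wild-type, and 9 of these regions were given no gene. At the start of DEPP1, a gene controlled by FOXO factors, chr10:45473538-45474648 had 8.31 RPM with EV, 4.42 with wild-type and 7.37 with mutant KDM5A, 1.67-fold higher with the mutant (1.14 to 2.45). The low library was thus wild-type. Inside TACC2, a coiled-coil protein of the centrosome, chr10:123900227-123901700 had 6.44, 5.16 and 8.58 RPM. Inside ANKH, a membrane protein of pyrophosphate transport, chr5:14809654-14811413 had 5.79, 3.87 and 6.46 RPM. The highest ratio was at chr1:68165236-68167061, with 5.23, 3.87 and 6.97 RPM, 1.80-fold higher (1.21 to 2.71). The other 8 lay at chr9:132040244-132041523, chr17:41916963-41918435, chr17:25706990-25708175, chr10:69853362-69855337, chr10:112169395-112171621, chr19:49045582-49047349, chr8:42660366-42661257 and chr16:72660544-72661622. EV was above wild-type in 11 of the 12 and above the mutant in 1. The 24 regions were picked for their ratios, so their folds are a description and their intervals do not allow for the pick.

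Among strong regions the lowest ratio was at PAX6, the paired-box transcription factor of eye and pancreas development. The region, chr11:31829968-31834661, had 40.4 RPM with EV, 37.4 with wild-type and 25.0 with mutant KDM5A. EV and wild-type differed by no more than counting error (ratio of wild-type to EV 0.926, 0.806 to 1.06), while the mutant was at 0.619 of EV (0.528 to 0.726). ATOH8, a basic helix-loop-helix transcription factor, had 34.4, 30.3 and 20.6 RPM at its start (chr2:85980662-85983066), 1.47-fold lower with the mutant than with wild-type (1.23 to 1.76). LRRN2, a neuronal membrane protein with leucine-rich repeats, had 39.5, 40.6 and 27.96 RPM at chr1:204653350-204655314, 1.45-fold lower (1.25 to 1.70). Regions inside SAMD11 (chr1:875216-878936) and CARNS1, the carnosine synthase (chr11:67187678-67189282), had 33.3, 31.2 and 20.996 RPM and 24.5, 24.8 and 16.96 RPM. The sixth, at chr19:1265115-1267616, was given no gene and had 26.3, 27.8 and 19.1 RPM. These 6 were picked for a low mutant/wild-type ratio, which favours low mutant values, so their order of libraries is a description only.

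The highest ratios among strong regions were smaller. At a start of OSBPL9, a lipid-transfer protein of the oxysterol-binding family, chr1:52082265-52084204 had 44.2 RPM with EV, 35.2 with wild-type and 46.6 with mutant KDM5A, 1.32-fold higher with the mutant than with wild-type (1.15 to 1.52). At the start of THG1L, which adds the guanosine that marks histidine transfer RNA, chr5:157157247-157159555 had 26.3, 22.02 and 27.96 RPM (1.27-fold higher, 1.06 to 1.52). NUP43, a nuclear pore subunit, had 29.9, 21.8 and 27.1 RPM at its start, chr6:150065884-150067956. EV and the mutant were close at these 3 genes and wild-type was below both. The region at MIR3648, chr21:9825641-9827465, had 82.0, 67.8 and 89.0 RPM. That microRNA lies in sequence of the ribosomal RNA repeats, which exist in near-identical copies, so its reads can belong to other copies and its value is uncertain. The other 2, chr7:154719424-154721153 and chrX:48533291-48536106, had 34.1, 21.7 and 26.95 RPM and 35.5, 27.6 and 33.9 RPM. This pick favours low wild-type values, and EV was above wild-type in 91.3% of all strong regions.

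**Figure D2:**
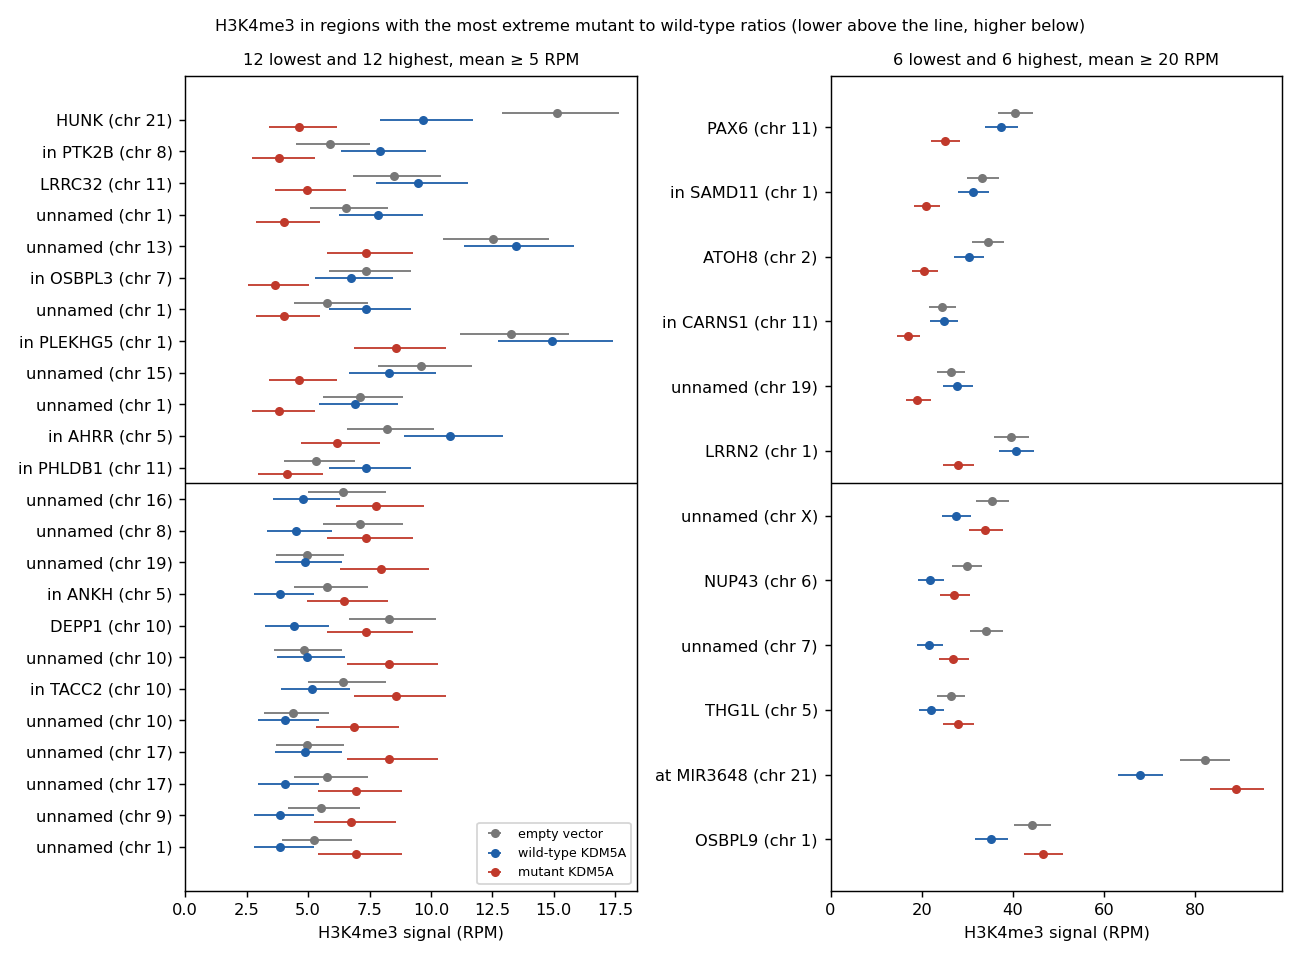
H3K4me3 signal (RPM, linear axis from 0) in the EV (grey), wild-type KDM5A (blue) and mutant KDM5A (red) libraries for the regions of lowest (above the line) and highest (below it) ratio of mutant to wild-type, with exact 95% Poisson intervals for counting error. Regions of 5 RPM or more are on the left and strong regions on the right. At PAX6, for example, EV (40.4) and wild-type (37.4) overlap and the mutant (25.0) lies apart. The regions were picked for their ratios, which favours such gaps between mutant and wild-type.

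The EV library was then set beside the ratio over all strong regions, since it enters neither that ratio nor the level that makes a region strong. Whether it helped to define the listed regions is not known. The wild-type and mutant libraries each enter both the classes and the ratios to EV, and the 2 ratios to EV share that library, so the values are given side by side and without a test. In the 65 strong regions with a log2 ratio of mutant to wild-type below −0.4, the median RPM was 31.9 with EV, 31.2 with wild-type and 22.8 with mutant KDM5A. In the 71 with a ratio of 0.2 or more it was 34.3, 28.5 and 33.9 RPM. EV lay near wild-type in the first class and near the mutant in the last. The making of the classes favours this, since low ratios favour low mutant values and high ratios low wild-type values. It is therefore a description only. In the most filled class, 3492 regions with a ratio from −0.1 to 0, the medians were 53.6, 47.8 and 46.0 RPM. EV was the highest and the mutant the lowest of the 3 libraries in 7668 strong regions, EV the highest and wild-type the lowest in 2042, and wild-type the highest with EV between in 817.

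**Figure D3:**
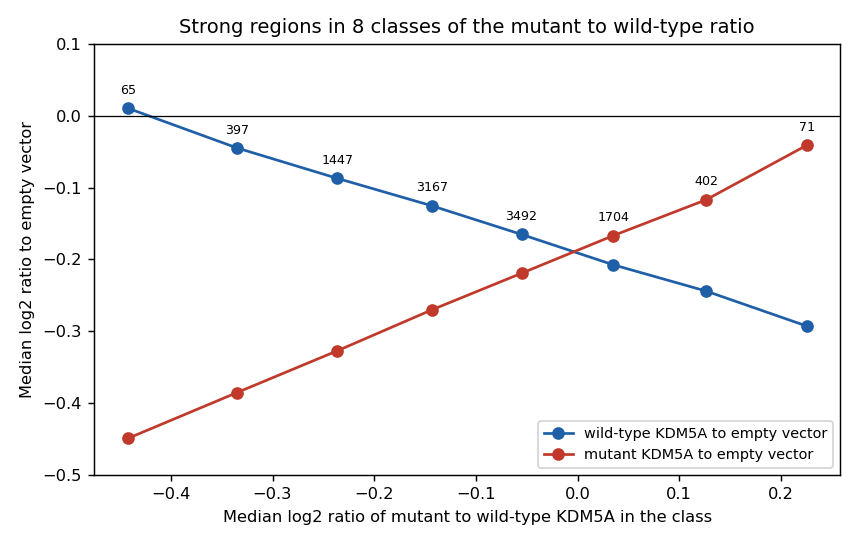
Median log2 ratio to EV of wild-type KDM5A (blue) and mutant KDM5A (red) in 8 classes of strong regions by their ratio of mutant to wild-type (horizontal axis, class median; numbers of regions above the points). From the class of 65 regions to that of 71, the wild-type median goes from 0.011 to −0.29 and the mutant median from −0.45 to −0.041. The gap between the lines follows from how the classes were made, which also favours these opposite slopes.

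Genes of 9 lists were placed in regions by their hg19 start, 113 regions in all. At least 1.5-fold lower with the mutant were 6 of them (5.31%) and 0 were higher, beside 5.46% and 5.19% of all regions. These shares are not matched by level, as 101 of the 113 had a mean of 5 RPM or more. Of those 101, SALL1 alone was lower, beside 0.486% of all regions of that level. The rest of the 6 were weak, a larger share of the weak list regions than the 10.2% of all weak regions. The weak list regions are few, and the lists were chosen with earlier results known. When scaled to a median ratio of 1, 3 of the 113 passed. The median log2 ratio of the 113 was −0.095, against −0.077 over all regions. Among the 101 of 5 RPM or more, the exact interval left out 1 on the low side at 22 (21.8%) and on the high side at 1 (0.990%), where the shares over all regions of that level were 17.4% and 0.871%. Intervals of single genes below are read against 1, not against the common ratio of the strong regions, 0.937, so they carry the common shift.

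Developmental regulators had the widest spread. Of 32 such genes 30 had a region, 3 were at least 1.5-fold lower with the mutant, 0 were higher, and the median log2 ratio was −0.087, which turned to 0.0053 when scaled to a median ratio of 1 over all regions. The log2 ratios ran from −0.65 at LEF1 to 0.55 at HOXD13. Both regions, and that of WNT5A, were weak, with means under 5 RPM. Ratios of weak regions spread more at large, with a standard deviation of 0.457 against 0.116 for strong regions. SALL1, a zinc finger factor of kidney development (chr16:51183386-51187250), had 15.96 RPM with EV, 7.46 with wild-type and 4.54 with mutant KDM5A. The mutant was 1.64-fold lower than wild-type there (1.13 to 2.42). The signalling ligand gene WNT5A (chr3:55519408-55522435) had 10.9, 5.71 and 3.53 RPM, and LEF1, a partner of beta-catenin (chr4:109087854-109090334), had 7.84, 4.52 and 2.62 RPM. EV was the highest library at all 3, and each interval of the ratio of mutant to wild-type left out 1. The 3 were named for passing 1.5-fold, so mutant below wild-type follows from the pick, which also favours such intervals. Over the list, intervals left out 1 on the low side at 5 of the 30 and on the high side at 1. On the low side this held for 10.8% of all regions and 17.4% of those of 5 RPM or more. HOXD13, a limb and hindgut homeobox gene, went the other way with 6.53, 3.502 and 5.45 RPM (1.56-fold, 1.01 to 2.42). TBX2, a T-box transcription factor, had 14.2, 6.27 and 6.26 RPM and differed between the 2 forms of KDM5A by less than counting error (ratio 0.999, 0.696 to 1.43).

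The Wnt pathway list had its 9 placed members below 0, with a median log2 ratio of −0.22 (−0.13 when scaled to a median ratio of 1), and 2 were at least 1.5-fold lower. Of all regions 63.7% were below 0 and 5.46% were that much lower, or 10.2% of the weak regions. At 5 RPM or more, the level of 7 of the 9, 75.8% of regions were below 0. Those 2, the antagonists SFRP1 and APCDD1, were near the floor with 4 and 3 reads in the mutant library against 11 and 10 in the wild-type library, and their ratios of 0.398 (0.093 to 1.34) and 0.329 (0.058 to 1.28) have intervals that include 1. Among members with more reads, RNF43, a ubiquitin ligase that removes Wnt receptors, had 19.2 RPM with EV, 21.3 with wild-type and 15.5 with mutant KDM5A (ratio 0.730, 0.592 to 0.899). AXIN2, a feedback inhibitor of beta-catenin, had 92.2, 82.7 and 70.4 RPM (0.851, 0.770 to 0.941). TCF7L2, the main DNA-binding partner of beta-catenin in the gut, had 149, 137 and 121 RPM (0.886, 0.821 to 0.957). With NKD1 (0.857, 0.737 to 0.995), 4 of these 7 intervals left out 1, beside 17.4% of regions of 5 RPM or more. They included 1 at TCF7 (0.957, 0.806 to 1.14), ZNRF3 (0.914, 0.803 to 1.04) and DKK1 (0.912, 0.814 to 1.02). Only the interval of RNF43 lies below 0.937, the common ratio of the strong regions. Of the intestinal identity genes 4 of 10 had a region, all 4 below 0, as were 63.7% of all regions. At 5 RPM or more, the level of 3 of these 4, the share was 75.8%. GATA4 was past 1.5-fold with 6.07, 3.13 and 1.82 RPM, an interval that includes 1 (0.308 to 1.06). ELF3 had 33.6, 35.6 and 29.1 RPM and CDX2 79.9, 66.3 and 58.95 RPM.

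Genes of proliferation, which the series title names, came next. All 22 cell cycle genes had a region, 0 passed 1.5-fold, 16 were below 0 and 6 above (79.7% of strong regions were below 0), and the median log2 ratio was −0.068, or 0.026 when scaled to a median ratio of 1. CCNE2, the cyclin E2 gene, had the lowest ratio with 90.7 RPM with EV, 85.9 with wild-type and 71.97 with mutant KDM5A (0.838, 0.759 to 0.925). CDC25A, the phosphatase that activates CDK2, had 62.4, 56.4 and 49.4 RPM (0.875, 0.776 to 0.987). Intervals also left out 1 at E2F3 and CCND1, which makes 4 of the 22. Of these 4 intervals, only that of CCNE2 also lies below 0.937, the common ratio of the strong regions. Of all regions of 5 RPM or more, 17.4% had an interval that left out 1 on the low side. AURKA, a mitotic kinase, had 84.5, 69.6 and 75.2 RPM (1.08, 0.976 to 1.20), and PCNA, the replication clamp, had 60.6, 47.5 and 47.7 RPM (1.00, 0.885 to 1.14). Of the 13 CDK inhibitors and p53 targets 0 passed 1.5-fold and 11 were below 0, again beside 79.7% of strong regions. The CDK inhibitor genes CDKN1A with 82.0, 66.9 and 64.8 RPM and CDKN2B with 29.3, 24.9 and 28.9 RPM had intervals that include 1 (0.870 to 1.08 and 0.979 to 1.38). Intervals left out 1 on the low side at 4 of the 13, beside the same 17.4%. These were CDKN1C (0.864, 0.751 to 0.993), RB1 (0.881, 0.783 to 0.991), GADD45A (0.894, 0.804 to 0.994) and BBC3 (0.918, 0.845 to 0.998). All 4 intervals include the common ratio, 0.937, while those of CDKN2B and AURKA lie above it.

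H3K4me3 at SMYD2 itself differed between the 2 forms of KDM5A by less than counting error, at 54.0 RPM with EV, 50.5 with wild-type and 49.7 with mutant KDM5A (0.984, 0.869 to 1.11). The paralogs of KDM5A, KDM5B with 64.7, 56.9 and 54.8 RPM and KDM5C with 35.2, 33.7 and 32.3 RPM, had ratios of 0.963 (0.856 to 1.08) and 0.958 (0.822 to 1.12). Of the 10 demethylase and SMYD genes 0 passed 1.5-fold, 10 were below 0 (median −0.058, or 0.035 when scaled to a median ratio of 1), and 2 intervals left out 1. Of strong regions 79.7% were below 0, and of regions of 5 RPM or more 17.4% had an interval on the low side, so neither count sets these genes apart. The 2 were KDM1B, which removes lower methylation states of the same lysine, with 55.4, 56.1 and 46.0 RPM (0.820, 0.725 to 0.928), and KDM6B, a demethylase of lysine 27, with 226, 199.8 and 171 RPM (0.858, 0.805 to 0.915). The H3K4 methyltransferase complexes had 10 of 11 genes placed, 0 past 1.5-fold and 0 intervals that left out 1, with ratios from 0.890 at MEN1 to 1.02 at KMT2C. Their median log2 ratio was −0.060, or 0.034 when scaled so.

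Mitochondrial genes had a median log2 ratio of −0.16 (−0.069 when scaled so) over 7 members, 0 past 1.5-fold. Of the 7, 6 were below 0, beside 75.8% of regions of 5 RPM or more, whose median was −0.093. Intervals left out 1 on the low side at 3, SOD2, MFN2 and COX4I1, beside 17.4% of regions of that level. Of these 3 intervals, only that of SOD2 also lies below 0.937, the common ratio of the strong regions. The intervals included 1 at TFAM (0.780 to 1.02), ATP5F1A (0.756 to 1.05) and NDUFA9 (1.02, 0.884 to 1.18). SOD2, the mitochondrial superoxide dismutase, had 59.6 RPM with EV, 51.1 with wild-type and 41.6 with mutant KDM5A (0.813, 0.714 to 0.925), and MFN2, which fuses mitochondria, had 47.8, 42.7 and 36.4 RPM (0.854, 0.742 to 0.982). PPARGC1A had 10, 5 and 1 reads, a ratio whose interval runs from 0.0046 to 1.96. The 8 common promoters, ACTB and GAPDH among them, had a median of −0.015, above that of all regions, and of 0.079 when scaled to a median ratio of 1. B2M, the light chain of MHC class I, had 73.9, 62.9 and 70.3 RPM (1.12, 1.00 to 1.24), and RPLP0, a ribosomal protein, had 82.6, 71.7 and 77.9 RPM (1.09, 0.983 to 1.20). Both intervals lie above the common ratio, 0.937. The median of the 8 epithelial markers likewise went from −0.069 to 0.024.

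**Figure D4:**
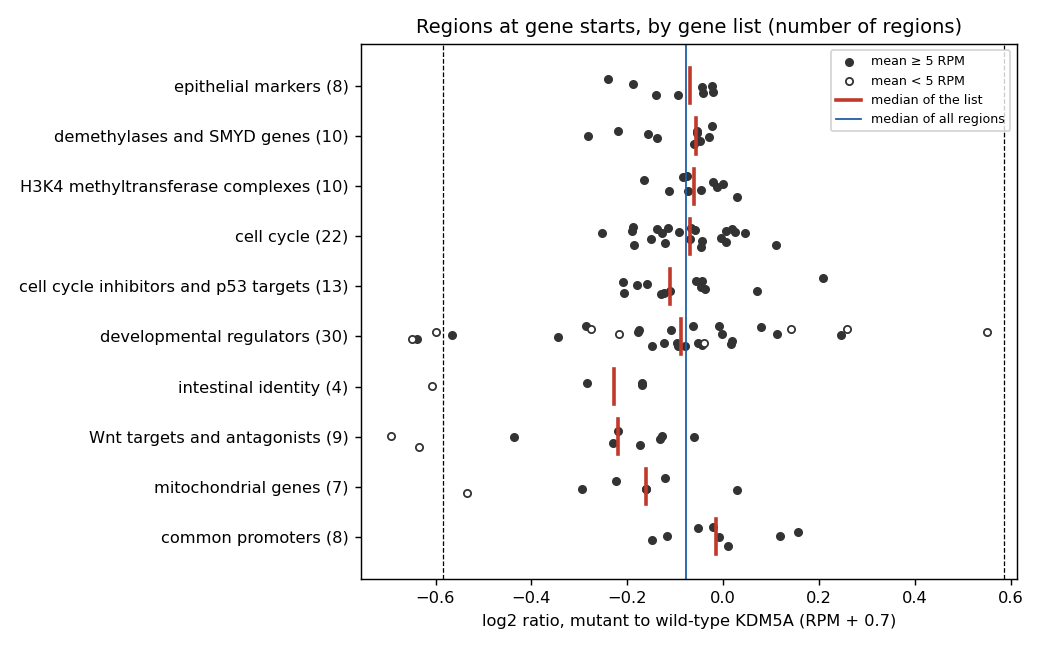
Log2 of mutant over wild-type KDM5A (RPM plus 0.7) at the region of each placed gene, by list, with the number of regions in parentheses; filled points have a mean of 5 RPM or more, red bars are list medians, the blue line is the median of all regions and dashed lines are 1.5-fold. Medians run from −0.23 (intestinal identity, 4 regions) to −0.015 (common promoters) as scaled to library totals, and the points past the lower dashed line are SALL1 and 5 genes under 5 RPM.

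Strong regions near the ends of chromosomes were lower with the mutant than those further in. Distance was measured from the outermost listed region at either end, which on some chromosomes lies beside the centromere. Within 2 Mb, 889 strong regions had a median of −0.13 on the log2 scale (binomial 95% interval of the median −0.14 to −0.12), with median RPM of 56.0 with EV, 50.9 with wild-type and 46.6 with mutant KDM5A. From 2 to 5 Mb the median was −0.11, and the 2480 regions 50 Mb or more inside had −0.086 (−0.091 to −0.080). Split at 5 Mb, the median was lower near the ends on 23 of 23 chromosomes, Y left out. The gap was widest on chromosome 1, −0.16 for 71 regions against −0.085 for 1042, and chromosome 11, −0.15 for 63 against −0.078 for 525, and narrowest on chromosome 10, −0.095 for 20 against −0.090 for 431. Since all regions come from the same 2 libraries, chromosomes are not replicates of the mutant. Base composition and gene density also change towards chromosome ends, and their part in this difference was not tested.

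**Figure D5:**
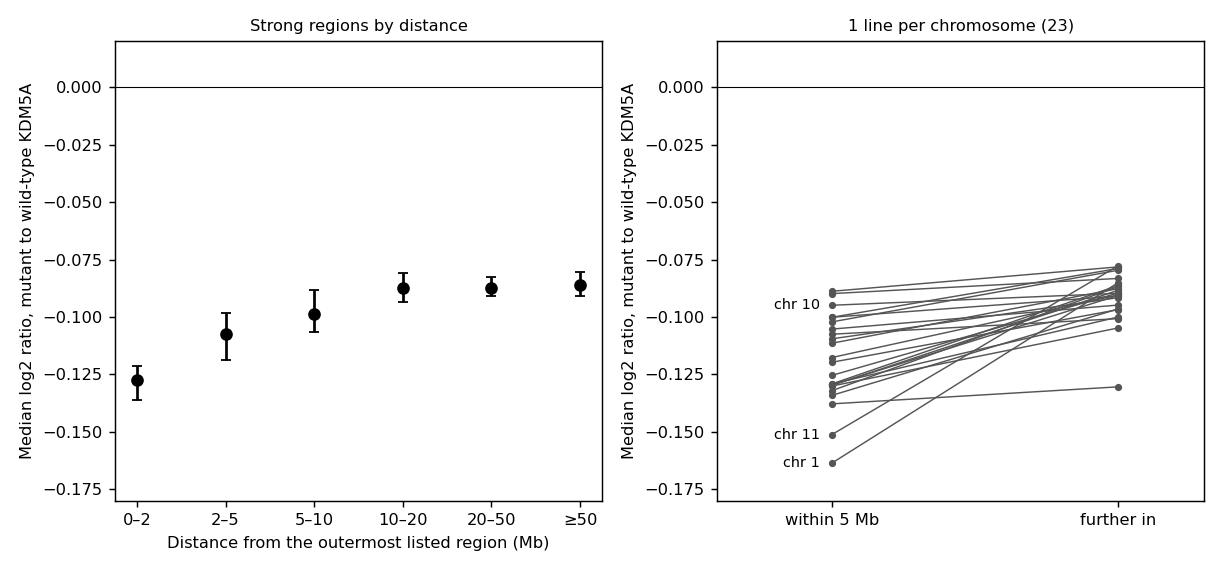
Median log2 of mutant over wild-type KDM5A in strong regions by distance from the outermost listed region of the chromosome (left, Mb, bars are binomial 95% intervals of the median) and within 5 Mb against further in for each of 23 chromosomes (right, 1 line each). The median is −0.13 within 2 Mb and −0.086 from 50 Mb, and every line rises from left to right.

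The median of strong regions by chromosome ran from −0.14 on chromosome 21 (97 regions) to −0.079 on chromosome 12 (569 regions). By width it was −0.10 for regions of 1.5 to 2 kb, −0.090 for 3 to 4 kb and −0.11 for the 200 regions over 6 kb. By level, over all regions and not the strong alone, the lowest decile (up to 0.704 RPM) had a median of 0.060, the seventh −0.105 and the highest −0.089.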

How the data were processed

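The deposited table holds RPM values that the authors computed per region for 3 H3K4me3 libraries. The 4 input and IgG samples were not analysed here, and the values carry any background. The header of the EV column names H3K4me4, read as a slip for H3K4me3. Per the submitters' processing notes build hg19 was used, with deepTools 3.5.6, HOMER, MACS2, MACS and Bowtie2 2.5.4. How regions were called is not given in the sources used here. In each library 100% of the RPM values fell within 0.02 reads of a multiple of that library's smallest step, and reads and totals were taken from it. Where no read was seen, 3 remain possible, 0.280 RPM with EV, 0.276 with wild-type and 0.303 with mutant KDM5A. Ratios of single regions are plain ratios of RPM with exact conditional (Clopper-Pearson) 95% intervals. PCR copies are not independent molecules.

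No count model was fitted with 1 library a group. Named regions, Y left out, are the 12 lowest and 12 highest log2 ratios at 5 RPM or more and the 6 lowest and 6 highest at 20 RPM or more. The members and lists were chosen with earlier results of these data known, and the distance classes after the values were seen. No hg19 annotation was at hand, so genes were placed from general knowledge of hg19 start sites, written by hand after the table was seen, and those of the named regions after their ratios were known: 129 of 146 had a region within 1000 bp, 123 of them over the start. Their order along each chromosome matched RefSeq's (GRCh38.p14) in 123 of 123 neighbouring pairs. Order does not test distance, so it cannot show that a start was placed within 1000 bp. Genes in whose body a region lay were placed the same way. Steps were tested on simulated data. Tools were matplotlib 3.10.9, statsmodels 0.14.6, scipy 1.17.1, pandas 2.3.3 and numpy 2.4.6 under Python 3.11.15. Alternatives were other pseudocounts, scalings, level filters and fold limits. Genes whose RefSeq start appeared to be another start than the region's were not printed as promoters.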

Additional observations from a re-analysis of the deposited data

How the results depend on the processing

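Each summary was recomputed under other settings. The median log2 ratio over all regions, −0.077, was −0.084 and −0.056 with pseudocounts of 0.07 and 3.5 RPM and −0.092 in regions at or above the median level, and it turned to 0.0088 with a median ratio of 1, 0.0062 with equal sums and 0.00087 with a lowess trend on level removed. The median of strong regions was −0.087 with 3.5 RPM and −0.0020 with equal sums, and turned to 0.00051 with a median ratio of 1 and 0.0012 with the trend removed. Scaling to a median ratio of 1 thus moved the median of all regions by 0.086, and of the regions past 1.5-fold 40.2% were lower in place of 51.2%. With 0.07 and 3.5 RPM, the lower regions numbered 3355 and 15 and the higher 3006 and 2; with the median-level filter 90 and 22, at 2-fold 200 and 269, and with an interval that also leaves out 1, 772 and 761. Among those past 1.5-fold with 3.5 RPM, 88.2% were lower. The highest decile of level minus the lowest, −0.15, was −0.21 with 0.07 RPM, −0.10 with 3.5 RPM, −0.099 and −0.10 with the median and sum scalings and −0.057 without the trend. List genes past 1.5-fold, 6, numbered 0 with 3.5 RPM and 3 with a median ratio of 1. The 36 named regions kept their direction in 180 of 180 values, which follows from their pick as extremes and is no sign of stability. Apart from what each setting does by its construction, the cause of these differences was not tested. Weak regions are limited by depth. No paired analysis was possible because each group has 1 library.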
